A study of Mus musculus with 16 samples.

Results

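The immunity-related GTPases (IRGs) are a family of GTP-binding proteins that mouse cells make in response to interferon. The 10 genes described here were chosen by symbol from the gene tables: Irgm1, Irgm2, Igtp, Iigp1, Tgtp1, Tgtp2, Ifi47, Gm4841, Gm4951 and Gm43302. All 10 were found among the 55414 genes of an untreated experiment and among the 56980 genes of an IFNγ experiment. The RNA came from KPC1199, a mouse pancreatic ductal adenocarcinoma line derived from tumours of the KPC model, in which Pdx-cre switches on oncogenic alleles, mutant Trp53 (R172H) among them, in the pancreas. Every library therefore carried the mutations of that model together with the CRISPR vector. One arm, sgCtrL, carried a control guide, and the other, Sin3Bsg1, carried 1 guide against Sin3b, the scaffold of a histone deacetylase complex. The cells were selected with puromycin and are not described as a single clone. In the untreated experiment 2 sgCtrL and 2 Sin3Bsg1 libraries were sequenced. In the IFNγ experiment each genotype had 3 libraries without IFNγ and 3 libraries from cells given 10 ng/ml IFNγ for 24 hours. The study asked how loss of Sin3b in tumour cells alters gene expression and the response to IFNγ.

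IRG proteins protect cells against pathogens that live inside a vacuole, such as Toxoplasma gondii. The regulatory members Irgm1, Irgm2 and Igtp (also called Irgm3) sit on the cell's own membranes and hold the effector members inactive there. The effectors, which include Iigp1 (Irga6), the products of Tgtp1 and Tgtp2 (Irgb6) and Ifi47 (Irgd), load onto the pathogen vacuole and break it, with the autophagy proteins that conjugate ATG8 guiding them to the target. Transcription of the family is switched on when IFNγ activates the JAK kinases, whose signal reaches the gamma-activated site (GAS) of promoters, and through IRF1, which binds the interferon-stimulated response element (ISRE).

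The annotation deposited with the counts bore out the family name for 9 of the 10 genes. These 9 carry the IIGP domain of the family. Gm43302 instead carries the GBP domains of the guanylate-binding proteins, a sister family of larger interferon-induced GTPases, and is annotated as an isoform of guanylate binding protein 6. It is treated below as a GBP locus. The 9 IRG genes lie in 3 clusters on the GRCm39 assembly. Irgm1 (chr11:48752795-48763164), Tgtp1 (chr11:48876154-48884999) and Tgtp2 (chr11:48948021-48955033) on the minus strand and Ifi47 (chr11:48967412-48987813) on the plus strand span 235 kb. Igtp (chr11:58089840-58098417) and Irgm2 (chr11:58090444-58113615), both on the plus strand, overlap each other within 23.8 kb. Gm4951 (chr18:60345048-60381504, plus), Gm4841 (chr18:60401377-60406349, minus) and Iigp1 (chr18:60506680-60525706, plus) lie within 181 kb on chromosome 18. Gm43302 (chr5:105362773-105441561, minus) overlaps Gbp10 over 60.0% of its exon bases and Gbp6 over 40.0%.

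Read sharing set how finely the members could be told apart. The coding sequences of Tgtp1 and Tgtp2, each 1245 bases long, were 99.7% identical, and 74.7% of all windows of 100 bases in Tgtp1 transcripts and 76.8% of those in Tgtp2 transcripts occurred exactly in another gene. Iigp1 and Gm4951 were 86.1% identical over the alignment of their coding sequences with gaps counted, yet 0% of their windows of 100 bases were shared. Igtp and Irgm2 were 67.3% identical on the same measure and shared 162 exon bases where the genes overlap. Shared windows made up 2.64% of Irgm1, 3.06% of Igtp, 5.82% of Ifi47, 6.62% of Irgm2 and 0.328% of Gm4841. For Gm43302 the share was 98.8%, mostly with Gbp6. The read length and the use of strand are not given in the sources used here. Values of Tgtp1, Tgtp2 and Gm43302 are therefore uncertain one by one. Sums of Tgtp1 with Tgtp2, and of Gm43302 with Gbp6 and Gbp10, are given beside them. Gm12185, which overlaps Tgtp1 over 9.70% of its exon bases and shares windows with Tgtp1 and Tgtp2, is not part of these sums.

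Promoters of 6 of the 10 genes were matched by symbol in the RefSeq table (assembly GRCm38.p6), each running from 250 bases before the start of the gene to 50 after it. Iigp1, Gm4841, Gm4951 and Gm43302 had no entry. The promoters were searched on both strands for an ISRE core, written GAAA, any 2 bases and GAAA again, and for GAS, written TTCNNNGAA. Of 32851 promoters of the same length in the table, 3.44% held the ISRE core, 8.30% held GAS and 0.454% held both. The windows of 60 bases below are shown because 4 of the 6 genes share one arrangement, in which a GAS is followed by 2 bases and then an ISRE core. Capitals mark the motifs, and each line is written 5′ to 3′ on the strand of its gene.
Irgm1: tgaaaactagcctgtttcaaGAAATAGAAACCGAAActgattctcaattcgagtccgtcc
Tgtp1: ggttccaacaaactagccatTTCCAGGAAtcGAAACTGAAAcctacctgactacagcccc
Tgtp2: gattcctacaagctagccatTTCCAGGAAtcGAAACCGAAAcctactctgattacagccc
Igtp: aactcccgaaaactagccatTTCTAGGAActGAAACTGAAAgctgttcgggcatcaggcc
Irgm2: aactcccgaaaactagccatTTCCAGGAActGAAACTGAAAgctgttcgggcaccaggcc

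The Irgm1 window came from chr11:48871371-48871670 (minus strand) and held 2 overlapping ISRE cores and no GAS. The windows of Tgtp1 (chr11:48992197-48992496, minus), Tgtp2 (chr11:49064163-49064462, minus), Igtp (chr11:58199306-58199605, plus) and Irgm2 (chr11:58214727-58215026, plus) held the joined pair. That joined arrangement was defined after the sequences were read. It occurred in 5 promoters of the table (0.0152%), those of these 4 genes and of Gm12185, a further IRG family gene beside Tgtp1. In the 4 genes with the joined pair, the ISRE core began between position −77 (Tgtp1) and position −34 (Igtp) relative to the annotated start. The Ifi47 promoter (chr11:49076337-49076636, plus) held neither motif in this window. A match of letters is a description and not a measured binding site.

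The untreated libraries held 29499733 to 32093704 counts and those of the IFNγ experiment 18128055 to 27056903. Sin3b, the targeted gene, fell in all 3 comparisons, from 83.4 to 88.6 CPM (counts scaled to the size of each library) in untreated sgCtrL to 34.1 to 36.5 CPM in Sin3Bsg1, with log2 changes between −1.28 and −1.22. Within the IFNγ experiment, replicate 1 of sgCtrL with IFNγ stood apart from its replicates, with a chi-square per gene of 19.5 and 23.2 against 4.12 for the other pair and 2.43 to 9.63 in the other groups. Calls with IFNγ, and the levels and folds that it moved, are therefore given also without it. Epithelial markers (6 genes) summed to 4600 to 4625 CPM in untreated sgCtrL and 6195 to 6253 in Sin3Bsg1, and 6 of 6 were higher. In the IFNγ experiment they summed to 2990 to 3028 against 3215 to 3317 CPM without IFNγ (3 of 6 higher) and to 3165 to 3692 against 4181 to 4433 with it (5 of 6 higher). Fibroblast and endothelial markers (7 genes) summed to 100.0 to 100.1 against 30.1 to 33.5 CPM untreated, 262 to 269 against 223 to 234 without IFNγ, and 184 to 186 against 160 to 172 with it. Only 3 of these 7 were tested. Of the 3, 2 were lower and none higher untreated, and 1 was higher and 1 lower both without and with IFNγ. Leukocyte markers (7 genes) summed to 4.37 to 7.06 CPM in every library, with Ptprc, Adgre1, Itgam, Lyz2 and Cd3e at or below 3 counts. The part of these markers in the genotype differences below was not tested. No label says that replicates were separate cultures, so the p-values measure the spread between these libraries, which may be technical.

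Without added IFNγ the family was present at low levels, and Iigp1 and Irgm1 made up most of it. Levels are compared between genes as TPM, counts scaled to gene length and then to the size of the library. In sgCtrL without IFNγ, Iigp1 stood highest at 33.2 ± 1.98 TPM (SD, n = 3), followed by Irgm1 at 21.7 ± 1.33 TPM, Gm4951 at 6.71 ± 1.05 TPM and Igtp at 3.87 ± 0.483 TPM. Gm4841, at 3.35 ± 0.75 TPM, overlapped Igtp. Irgm2 followed at 2.37 ± 0.0899 TPM and Tgtp2 at 1.52 ± 0.337 TPM. Ifi47 (0.444 TPM), Tgtp1 (0.262 TPM) and Gm43302 (0 TPM) were near the limit of detection. The first places changed with genotype. In Sin3Bsg1 without IFNγ, Irgm1 was highest at 26.6 ± 0.829 TPM and Iigp1 second at 13.9 ± 1.64 TPM, and in the untreated experiment the means were 24.3 TPM for Irgm1 and 13.6 TPM for Iigp1 against 22.8 and 31.4 TPM in sgCtrL. In neither experiment did the ranges of the 2 genes overlap within a genotype.

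**Figure D1:**
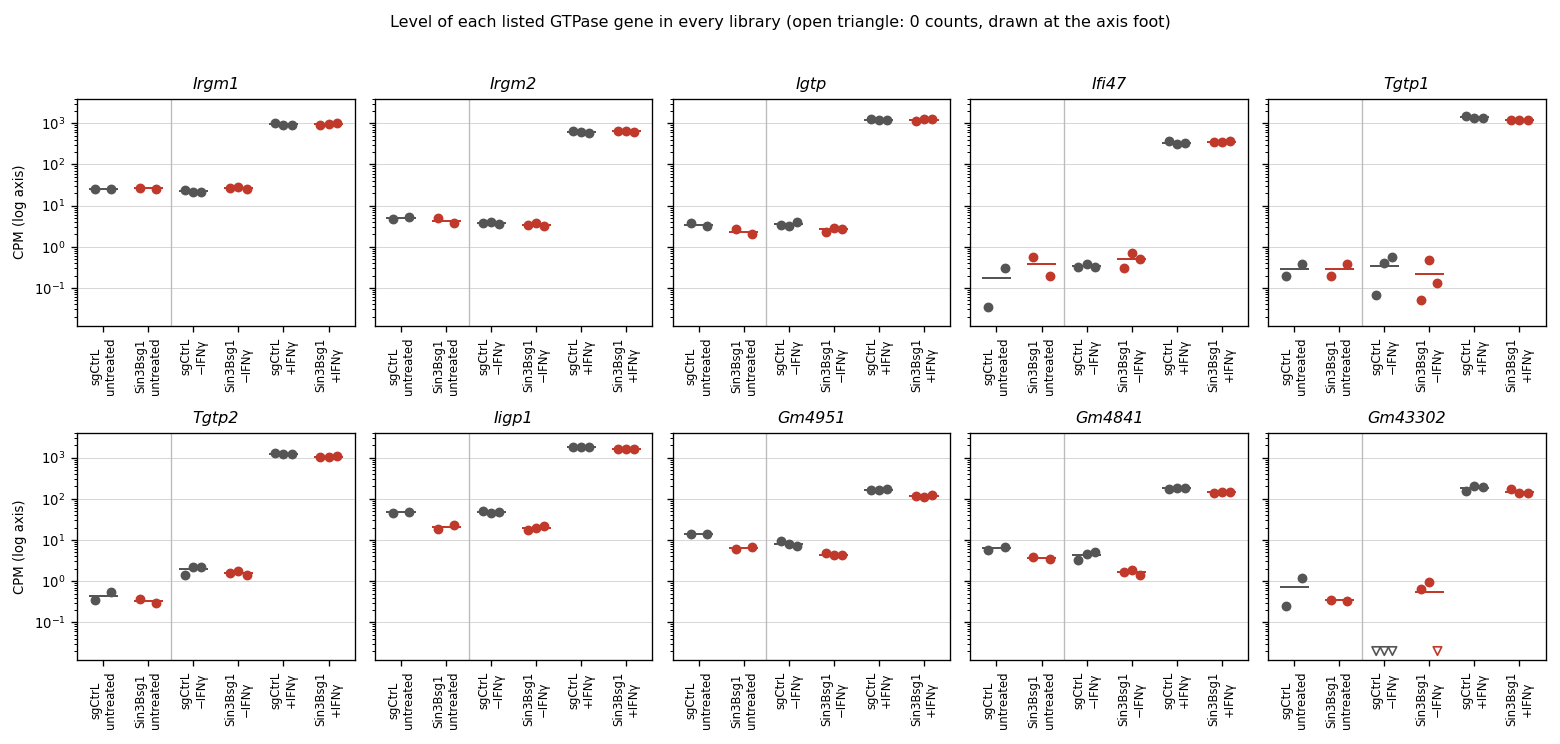
Level of each of the 10 genes in the 16 libraries, 1 panel per gene, as CPM on a log axis for sgCtrL and Sin3Bsg1 in the untreated experiment (left of the line), without IFNγ and with IFNγ. Each point is 1 library, each bar is the group mean and an open triangle marks 0 counts. Iigp1, Gm4841 and Gm4951 lie lower in Sin3Bsg1 than in sgCtrL without added IFNγ, and every gene lies far higher with IFNγ in both genotypes.

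The 3 genes on chromosome 18 were lower in Sin3Bsg1 in both comparisons without added IFNγ. In the untreated experiment Iigp1, Gm4951 and Gm4841 fell in Sin3Bsg1 and none of the 9 genes that could be tested rose (edgeR quasi-likelihood test, Benjamini-Hochberg adjusted p under 0.05). Across all 14589 genes tested, 16% fell and 15.1% rose, so 3 of 9 lower is to be read against that background. Ifi47 did not pass the filter on low counts in this experiment. The median log2 difference was −0.58 over the 9 members, −0.49 with Gm43302 left out and 0.00 over all genes. It was −1.13 over the chromosome 18 members and −0.18 over the chromosome 11 members. In bulk RNA, fewer cells expressing a gene and less RNA per cell cannot be told apart.

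Iigp1, an effector that coats the Toxoplasma vacuole, measured 46.3 and 49.1 CPM in untreated sgCtrL and 19.0 and 22.5 CPM in Sin3Bsg1. It measured 49.8, 45.1 and 47.2 CPM in sgCtrL without IFNγ and 17.2, 19.7 and 21.5 CPM in Sin3Bsg1. Every Sin3Bsg1 library lay below every sgCtrL library in both experiments. The log2 difference was −1.20 ± 0.074 (SE; adjusted p = 3.14e-09), a level 2.30-fold lower, in the untreated experiment and −1.28 ± 0.066 (adjusted p = 3.12e-09), 2.43-fold lower, without IFNγ.

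Gm4951, a gene with the IIGP domain and the nearest relative of Iigp1 in the set, measured 13.8 and 13.7 CPM in untreated sgCtrL and 5.98 and 6.58 CPM in Sin3Bsg1. Without IFNγ its values were 9.38, 7.97 and 6.95 CPM in sgCtrL and 4.76, 4.26 and 4.21 CPM in Sin3Bsg1. The groups did not overlap, with log2 differences of −1.13 ± 0.11 (adjusted p = 6.85e-07) and −0.87 ± 0.10 (adjusted p = 2.07e-05). Gm4841, which lies between them and also carries the IIGP domain, measured 5.71 and 6.70 CPM in untreated sgCtrL and 3.89 and 3.43 CPM in Sin3Bsg1. Without IFNγ it measured 3.29, 4.50 and 5.24 CPM in sgCtrL and 1.68, 1.91 and 1.38 CPM in Sin3Bsg1. Its groups were also apart in both experiments, by −0.76 ± 0.16 on the log2 scale (adjusted p = 0.00199) and −1.39 ± 0.16 (adjusted p = 1.23e-05). The trio was called lower under every alternative in both comparisons.

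Without IFNγ in the IFNγ experiment, 4 of 10 members were lower in Sin3Bsg1 and 2 were higher, against 9.33% lower and 7.89% higher among the 14913 genes tested. Beside the chromosome 18 trio, the calls fell on the regulators Igtp and Irgm1 and on Gm43302. Igtp measured 3.40, 3.26 and 4.06 CPM in sgCtrL and 2.28, 2.87 and 2.75 CPM in Sin3Bsg1, a log2 difference of −0.44 ± 0.11 (adjusted p = 0.0185). That call was lost without replicate 3 of sgCtrL or without replicate 1 of Sin3Bsg1 (log2 −0.34 and adjusted p = 0.162 in both cases). In the untreated experiment Igtp stood at 3.69 and 3.23 against 2.64 and 1.99 CPM, and its log2 difference of −0.58 ± 0.22 did not pass (adjusted p = 0.0584).

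Irgm1, the regulator whose loss is known to leave mice open to many intracellular bacteria, moved the other way. It measured 23.7, 22.0 and 21.3 CPM in sgCtrL without IFNγ and 27.1, 27.9 and 26.1 CPM in Sin3Bsg1. All 3 Sin3Bsg1 libraries were above the sgCtrL libraries, by 0.27 ± 0.066 on the log2 scale (adjusted p = 0.00896), a level 1.21-fold higher. Untreated values of 25.1 and 25.0 against 27.5 and 26.1 CPM gave 0.098 ± 0.069 (adjusted p = 0.327). Irgm2, the remaining regulator, measured 4.68 and 5.20 CPM in untreated sgCtrL and 4.92 and 3.74 CPM in Sin3Bsg1. It ranged from 3.64 to 3.97 and from 3.14 to 3.78 CPM in the same order without IFNγ, and the genotypes overlapped in both experiments (adjusted p = 0.480 and 0.464).

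The remaining effectors were close to the limit of detection without IFNγ. Tgtp2 lay between 0.288 and 0.546 CPM in the untreated libraries and between 1.44 and 2.23 CPM in the libraries without IFNγ, with overlapping genotypes. Tgtp1 lay between 0.0514 and 0.554 CPM and Ifi47 between 0.0336 and 0.696 CPM over the 10 libraries without added IFNγ. None of the 3 passed a genotype test there. Without IFNγ the log2 differences were −0.34 ± 0.15 for Tgtp2 (adjusted p = 0.210), −0.64 ± 0.62 for Tgtp1 and 0.53 ± 0.38 for Ifi47. Gm43302 was listed at 0 in all 3 sgCtrL libraries without IFNγ and at 0.645, 0.956 and 0 CPM in Sin3Bsg1, so the groups overlapped although its test passed (adjusted p = 0.0459). That call held in 4 of 12 fits that left out 1 library, with adjusted p up to 0.134. Set against a floor of 3 counts per library, its mean was 3.58-fold higher in Sin3Bsg1, a value that is uncertain because its reads are shared. Summed with Gbp6 and Gbp10, the genes that share its reads, the locus measured 4.26, 7.01 and 5.29 CPM in sgCtrL and 4.15, 4.74 and 4.85 CPM in Sin3Bsg1, and the difference did not pass (log2 −0.30, adjusted p = 0.141). In the untreated experiment the summed locus, with most of its counts on Gbp6, measured 8.70 and 9.02 CPM in sgCtrL and 3.18 and 3.72 CPM in Sin3Bsg1. There it was lower by −1.36 ± 0.15 on the log2 scale (adjusted p = 2.26e-06), while Gm43302 alone stood at −1.12 ± 0.61 (adjusted p = 0.195).

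**Figure D2:**
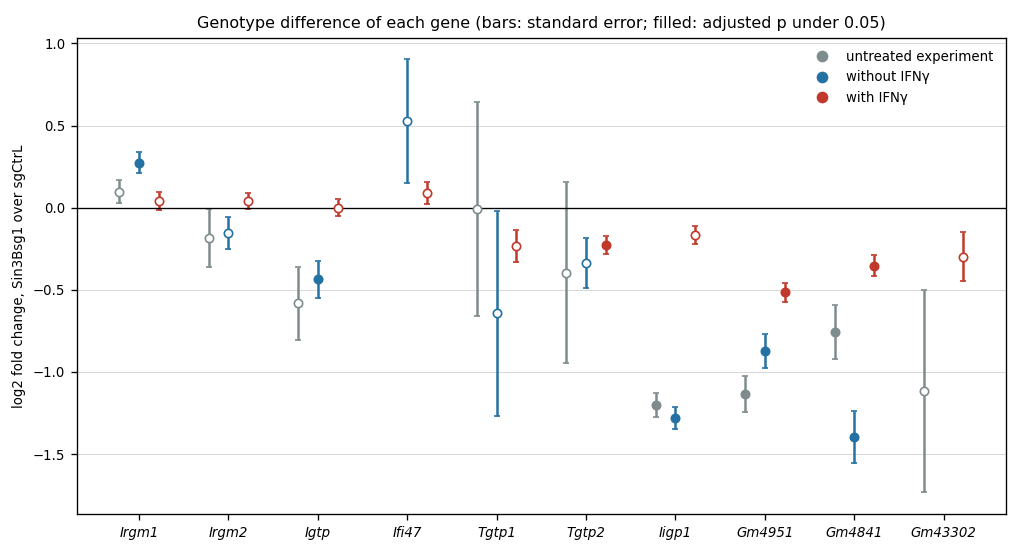
Genotype difference of each gene as the log2 fold change of Sin3Bsg1 over sgCtrL, with its standard error, in the untreated experiment, without IFNγ and with IFNγ. Filled points have an adjusted p under 0.05, and Ifi47 (untreated) and Gm43302 (without IFNγ) are not drawn, the first untested and the last set by libraries at 0. Iigp1 stands at −1.20 and −1.28 without added IFNγ and at −0.17, unfilled, with it, while Gm4951 stays below 0 and filled in all 3 comparisons.

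IFNγ raised every member in both genotypes. In sgCtrL 10 of 10 were higher, against 15.7% of all genes tested, and in Sin3Bsg1 10 of 10, against 16.1%. The calls held under each alternative in which the gene was tested. Medians were 7.88 (sgCtrL) and 7.82 (Sin3Bsg1) on the log2 scale over the 10 members and close to 0 over all genes. Over the 9 IRG genes alone they were 7.34 (sgCtrL) and 7.53 (Sin3Bsg1). Adjusted p-values in sgCtrL ran from 3.82e-19 to 2.03e-11, the last for Gm43302. Without replicate 1 of sgCtrL with IFNγ, the log2 changes in sgCtrL moved by 0.0975 (Ifi47) or less for the 9 IRG genes.

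Among the regulators, Igtp rose most, from 3.26 to 4.06 CPM up to 1259, 1218 and 1189 CPM in sgCtrL and to 1168, 1249 and 1251 CPM in Sin3Bsg1. Its log2 change was 8.42 ± 0.081 in sgCtrL (342-fold) and 8.86 in Sin3Bsg1 (464-fold). Irgm2 reached 647, 617 and 594 CPM in sgCtrL and 661, 635 and 616 CPM in Sin3Bsg1, a rise of 163-fold and 185-fold. Irgm1, which started highest of these 3, reached 1022, 910.4 and 889 CPM in sgCtrL and 928, 969.7 and 1002 CPM in Sin3Bsg1. Its rise was the smallest of the 3 regulators, 42.0-fold (log2 5.39 ± 0.069) and 35.7-fold (log2 5.16).

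The effectors of chromosome 11 rose from near 0. Tgtp1 reached 1480.1, 1370.2 and 1355 CPM in sgCtrL and 1189.8, 1183 and 1204 CPM in Sin3Bsg1, and Tgtp2 reached 1309, 1223 and 1211 CPM and 1043, 1058 and 1094 CPM in the same order. Taken as one pair, since their reads are shared, they rose 1156-fold in sgCtrL and 1256-fold in Sin3Bsg1. Ifi47 reached 379.6, 311 and 328 CPM in sgCtrL and 362, 354 and 368 CPM in Sin3Bsg1, a log2 change of 9.93 ± 0.14 and 9.49. The folds of Ifi47 were 999 and 715. They rest on 6 to 9 counts per library without IFNγ in sgCtrL and 8 to 16 in Sin3Bsg1, and carry that counting error. Gm43302 rose at least 1235-fold in sgCtrL, where the libraries without IFNγ were at 0. Its locus summed with Gbp6 and Gbp10 rose by 8.14 in sgCtrL and 8.46 in Sin3Bsg1 on the log2 scale.

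The chromosome 18 genes rose by smaller folds than the effectors of chromosome 11, and in sgCtrL from higher mean levels. Iigp1 reached 1783, 1812 and 1865 CPM in sgCtrL and 1629.7, 1615 and 1619.7 CPM in Sin3Bsg1. Gm4841 reached 177, 187 and 186 CPM in sgCtrL and 141, 145 and 144 CPM in Sin3Bsg1. Gm4951 reached 162, 165 and 169.8 CPM in sgCtrL and 115, 112 and 121 CPM in Sin3Bsg1. In each of the 3 genes every Sin3Bsg1 library with IFNγ lay below every sgCtrL library.

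**Figure D3:**
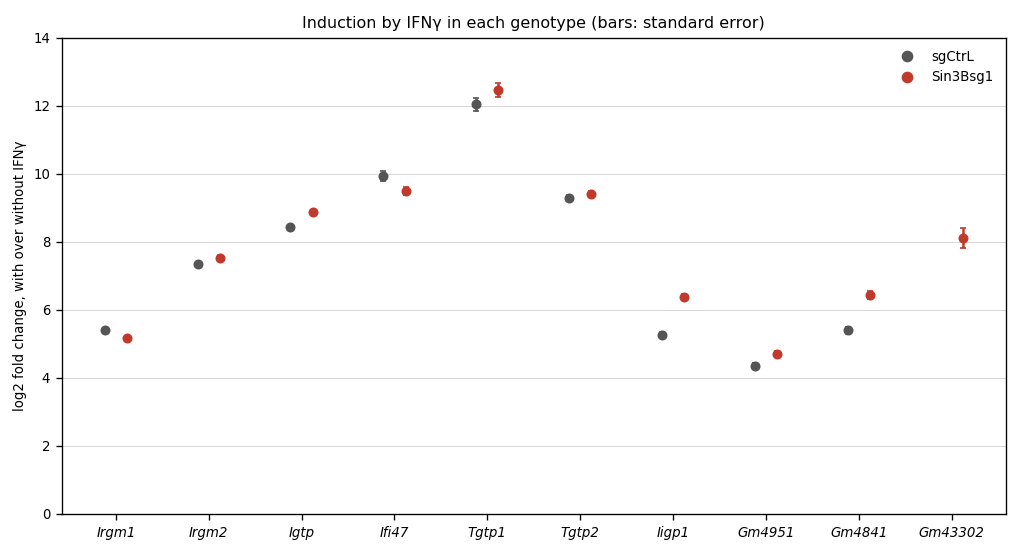
Change of each gene with IFNγ as the log2 fold change of libraries with over without IFNγ, with its standard error, in sgCtrL and Sin3Bsg1. All values lie above 4, and Iigp1 (5.27 and 6.38) and Gm4841 (5.39 and 6.43) show the higher value in Sin3Bsg1 with a called interaction. The sgCtrL value of Gm43302 is not drawn, since its libraries without IFNγ were at 0.

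Under IFNγ the family made up a far larger part of the RNA and its order changed. In sgCtrL, Igtp (1255 ± 39.3 TPM) and Iigp1 (1211 ± 36.9 TPM) overlapped at the top. Tgtp1 followed at 1031 ± 55.5 TPM, then Tgtp2 at 922 ± 44.3 TPM and Irgm1 at 864 ± 69.5 TPM, which overlapped each other. Ifi47 (420.4 ± 47.7 TPM) and Irgm2 (364 ± 16.2 TPM) overlapped, as did Gm4841 (134 ± 3.42 TPM) and Gm4951 (130.0 ± 4.04 TPM). Gm43302 was lowest at 88.6 ± 13.6 TPM. Taken as one, since their split is uncertain, Tgtp1 and Tgtp2 stood above all others at 1953 ± 99.7 TPM in sgCtrL and 1667 ± 38.2 TPM in Sin3Bsg1. Without replicate 1 of sgCtrL, Igtp and Iigp1 still overlapped, while Irgm1 (824 to 825 TPM) lay below Tgtp2 (889.5 to 904 TPM) and Irgm2 (353 to 357 TPM) below Ifi47 (378 to 410.5 TPM). In Sin3Bsg1, Igtp (1257 ± 13.5 TPM) stood above Iigp1 (1081 ± 40.5 TPM) with no overlap, and Irgm1 (889.6 ± 7.16 TPM) came next, overlapping Tgtp1 (879 ± 26.7 TPM). The 9 IRG genes together took 89.8 to 95.2 CPM in sgCtrL without IFNγ and 7786 to 8219 CPM with it. In Sin3Bsg1 they took 58.3 to 63.4 CPM and 7237 to 7419.5 CPM. The summed level was 1.51-fold lower in Sin3Bsg1 without IFNγ and 1.08-fold lower with it, or 1.06-fold lower with it when replicate 1 of sgCtrL was left out.

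With IFNγ, 3 of 10 members were lower in Sin3Bsg1 than in sgCtrL and none was higher, against 7.90% lower and 8.62% higher among all genes. These were Gm4951 (log2 −0.52 ± 0.059, adjusted p = 1.71e-05), Gm4841 (−0.35 ± 0.066, adjusted p = 0.00136) and Tgtp2 (−0.23 ± 0.056, adjusted p = 0.0104). Tgtp1 had the same estimate with a wider error (−0.23 ± 0.095, adjusted p = 0.112), and the pair summed was lower by 0.23 on the log2 scale (adjusted p = 0.0364), a level 1.17-fold lower in Sin3Bsg1. The summed pair measured 2789, 2593 and 2566 CPM in sgCtrL and 2233, 2242 and 2298 CPM in Sin3Bsg1, with no overlap. Without replicate 1 of sgCtrL the pair was 1.14-fold lower. Iigp1 stood at −0.17 ± 0.056 (adjusted p = 0.0540), and the regulators Igtp, Irgm1 and Irgm2 at 0.00, 0.04 and 0.04 (adjusted p = 0.995, 0.700 and 0.638). Without replicate 1 of sgCtrL with IFNγ, 6 members were called, 5 lower and 1 higher, against 7.69% lower and 11.5% higher among all genes in that fit. Gm4951 (−0.52, adjusted p = 2.75e-06), Gm4841 (−0.36, adjusted p = 0.00017) and Tgtp2 (−0.18, adjusted p = 0.00616) remained, and Iigp1 (−0.17, adjusted p = 0.0221), Gm43302 (−0.41, adjusted p = 0.0199) and, in the higher direction, Ifi47 (0.19, adjusted p = 0.00774) were added. The locus of Gm43302 summed with Gbp6 and Gbp10 gave 0.03 (adjusted p = 0.865).

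The difference between the genotypes in their response to IFNγ was tested by the interaction, the log2 change with IFNγ in Sin3Bsg1 minus that in sgCtrL. It passed for 2 of 10 members, both with the larger rise in Sin3Bsg1, and for 17 of 14913 genes in all (0.0805% positive and 0.0335% negative). Iigp1 had the smallest p of all genes tested. Its interaction was 1.12 ± 0.087 (95% interval 0.93 to 1.30, adjusted p = 2.05e-05), from a rise of 38.4-fold in sgCtrL and 83.3-fold in Sin3Bsg1. Leaving out replicate 1 of sgCtrL with IFNγ gave 1.10 (adjusted p = 8.34e-07). Gm4841 followed at 1.04 ± 0.17 (adjusted p = 0.0308), from 42.2-fold and 86.7-fold, with the tenth smallest p of all genes, and gave 1.02 (adjusted p = 0.0123) without that library. Its call was lost in 9 of 12 fits that left out 1 library (values 0.90 to 1.19, adjusted p up to 0.168).

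For the third gene of that cluster, Gm4951, the folds were 20.4 and 26.3 and the interaction of 0.36 ± 0.12 did not pass (adjusted p = 0.693). Igtp (0.44 ± 0.12, adjusted p = 0.498) and Irgm1 (−0.24 ± 0.086, adjusted p = 0.794) did not pass either, nor did Irgm2 (0.19), Tgtp2 (0.11), Tgtp1 (0.41), Ifi47 (−0.44) or Gm43302 (−6.93, a value set by libraries at 0). On the linear scale the chromosome 18 genes read otherwise. The Sin3Bsg1 mean of Iigp1 minus that of sgCtrL was −27.9 CPM without IFNγ and −198 CPM with it. The same difference was −2.69 and −39.8 CPM for Gm4841 and −3.69 and −49.7 CPM for Gm4951. The larger fold of Iigp1 and Gm4841 in Sin3Bsg1 thus came with a lower start and a final level that was still below that of sgCtrL in every library. The edgeR test of that final difference did not pass for Iigp1 (adjusted p = 0.0540).

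The deposited counts of Tgtp1 and Tgtp2 were split by estimation. None of their values was a whole number in any library, while 40.3% (untreated experiment) and 28.4% (IFNγ experiment) of values were not whole over genes with a mean count of at least 10, and 0% and 8.33% for Irgm1. Values that were not whole also made up 100% of those of Irgm2, Igtp and Gm43302 in the untreated experiment, and 50% (Irgm2 and Igtp) and 66.7% (Gm43302) in the IFNγ experiment. The chromosome 18 genes also lay above the shares over all genes. Their values were not whole in 75% (Gm4951) and 50% (Iigp1 and Gm4841) of cases untreated. In the IFNγ experiment the shares were 58.3% (Gm4951), 50% (Iigp1) and 41.7% (Gm4841). In the 6 libraries with IFNγ, Tgtp1 received 52.4% to 53.3% of the pair's counts, which numbered 53443 to 68650. Without IFNγ the pair summed to 28 to 62 counts in a library and Tgtp1 received 4.50%, 15.2% and 19.9% in sgCtrL and 3.21%, 21.5% and 8.58% in Sin3Bsg1. Its share in untreated cells was 36.3% and 40.6% in sgCtrL and 34.3% and 57.7% in Sin3Bsg1. With a split that differed this much between libraries, the separate folds of Tgtp1 (4142 and 5401) and Tgtp2 (638 and 676) are less certain than that of the pair. Gm43302 likewise received between 0% and 20.2% of the summed counts of Gm43302, Gbp6 and Gbp10.

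**Figure D4:**
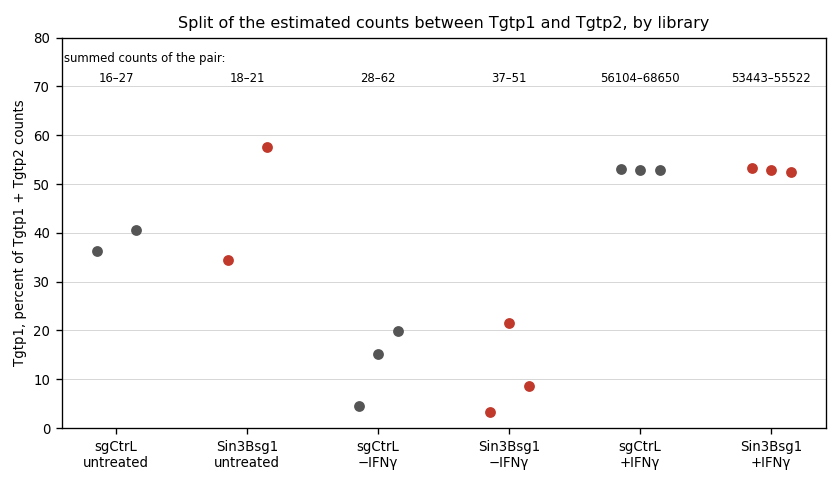
Share of the summed estimated counts of Tgtp1 and Tgtp2 given to Tgtp1, in percent, for each of the 16 libraries by group, with the summed counts of the pair printed above. The 6 libraries with IFNγ lie together between 52.4% and 53.3%, and the 10 libraries without it, with 16 to 62 counts, scatter between 3.21% and 57.7%.

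Genes around the chromosome 18 cluster were compared as a description, within 500 kb on either side, a window chosen after the values were seen. Untreated, 9 neighbours were tested, of which 2 were lower and 1 higher in Sin3Bsg1, with a median log2 difference of −0.07 (−0.84 to 0.12). Without IFNγ 11 neighbours were tested, of which 2 were lower and none higher, with a median of −0.20. The shares over all genes were 16% lower and 15.1% higher untreated, and 9.33% lower and 7.89% higher without IFNγ. Smim3, named here after its values were seen, was lower in both, by −0.50 (adjusted p = 2.19e-05) and −0.49 (adjusted p = 0.00122). F830016B08Rik, a further IRG family gene inside the cluster, was lower in the untreated experiment (−0.84, adjusted p = 0.0277) and stood at −1.08 (adjusted p = 0.147) without IFNγ. The same window around the chromosome 11 members also held called neighbours. Near Tgtp1, 5 of 12 tested were higher and 1 lower untreated, and 1 of 15 was higher and none lower without IFNγ. Near Igtp, 1 of 13 was higher and 1 lower untreated, and 2 of 13 were higher and 1 lower without IFNγ.

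The rest of the pathway was read from gene lists. Of the IFNγ signalling list (receptor chains, JAK kinases and IRFs), 6 tested genes are reported. In untreated Sin3Bsg1 1 of them was lower, Jak1 (log2 −0.16), and 2 were higher, Jak2 (0.24) and Ifngr2 (0.13). In the IFNγ experiment the genotypes differed in 1 gene without IFNγ, Jak2 (0.29), and in 1 with it, Irf9 (0.26). IFNγ raised 2 of the 6, Irf1 and Irf9, in both genotypes, by 3.51 and 2.26 on the log2 scale in sgCtrL and by 3.57 and 2.39 in Sin3Bsg1, and lowered 1, the receptor chain Ifngr2 (−0.30 and −0.33). No gene of this list passed the interaction.

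Of the ATG8 conjugation genes, which guide IRG proteins to vacuoles, all 12 were tested. Map1lc3a and Gabarapl1, both of which encode ATG8 proteins, were lower in Sin3Bsg1 in all 3 comparisons, by −0.36, −0.59 and −0.65 and by −0.33, −0.31 and −0.31 on the log2 scale (untreated, without and with IFNγ). Atg7 (0.28 without IFNγ) and Atg16l1 (0.20 with it) were higher, Sqstm1 was lower without IFNγ (−0.12), and the others were not called. Of the other IRG family genes, 2 of 7 in the table were tested untreated and 5 in the IFNγ experiment. Untreated, 1 was higher and 1, F830016B08Rik (−0.84), lower. Irgq, an IRG-like gene, was higher in Sin3Bsg1 in the untreated experiment (0.19) and without IFNγ (0.28), and Gm12250 was higher with IFNγ (0.23, adjusted p = 0.0252). IFNγ raised 4 of the 5 and lowered Irgq in each genotype.

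The guanylate-binding proteins, which act on the same vacuoles, rose with IFNγ in 10 of 10 tested in both genotypes. Their genotype differences went both ways. Untreated, 3 of 5 tested were lower in Sin3Bsg1, among them Gbp9 (log2 −1.27) and Gbp6 (−1.38). Without IFNγ 3 of 10 were lower, among them Gbp9 (−0.96), and 2 were higher, Gbp3 (1.27) and Gbp2 (0.66), and with IFNγ 2 were higher, Gbp5 (0.38) and Gbp2 (0.21). Gbp9 passed the interaction at 0.82 ± 0.12 (adjusted p = 0.0171), with the third smallest p of all genes. Gbp9 resembled Iigp1 and Gm4841 in the directions of its called differences, untreated, without IFNγ and in the interaction. With IFNγ Gbp9 was not called between genotypes, while Gm4841 was called lower in Sin3Bsg1. Of the large inducible GTPases, 1 of 2 tested was lower untreated (Gvin2, −0.43) and 1 of 3 without IFNγ (Gvin1, −0.89), and all 3 rose with IFNγ in both genotypes.

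The genes whose pattern over the 12 libraries of the IFNγ experiment lay nearest to the mean pattern of the 10 members were Gbp11, Gbp6, Mpeg1, Ifi206 and Gbp7. Their root mean square distance was 0.227, 0.255, 0.305, 0.338 and 0.344 on the log2 scale. Gbp6 averaged 5.13 and 3.97 CPM without IFNγ and 963 and 1079 CPM with it in sgCtrL and Sin3Bsg1. It shares reads with Gm43302, which is part of the mean pattern. In the same order, Gbp11 averaged 0.0317 and 0 CPM and Ifi206 0 and 0 CPM without IFNγ. A prior count of 2, added before taking logs, therefore weighs on the distances of Gbp11 and Ifi206. The 12 libraries belong to one experiment, and the likeness is mostly that of a rise with IFNγ.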

How the data were processed

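Total RNA from KPC1199 cells was sequenced. The submitters' processing notes name fastp, HISAT2, StringTie, DESeq2 and the build mm39, whereas the methods name HISAT2, featureCounts on unique reads and mm9; which made the tables cannot be told from these. The authors deposited estimated counts per gene, many not whole, in a table for each experiment. Their columns of group means, fold changes and p-values were not used. No column belonged to another series (0 columns). Control columns named for a lacZ guide were taken as sgCtrL. For the untreated experiment, 324 loci without a gene identifier (0.615% to 0.677% of counts) were left out.

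Counts were rounded and fitted in edgeR 4.0.16 (TMM, filterByExpr, glmQLFit and glmQLFTest, two-sided, R 4.3.3), separately by experiment, with a mean per group and Benjamini-Hochberg adjustment over 14589 and 14913 genes. CPM used TMM-scaled totals; TPM used the deposited gene lengths. Levels below 3 counts per library were taken as the floor, and intervals are 95% and cover these libraries only. Alternatives were RLE size factors, DESeq2 1.42.0, other count filters (none, or at least 10 counts in each library), unrounded counts, only the groups compared, a replicate block, leaving out each library, Tgtp1 and Tgtp2 summed and, added after the data were seen, Gm43302 summed with Gbp6 and Gbp10. Coding identity and shared windows were computed from GENCODE vM39 (GRCm39) with Biopython 1.88 and BLAST+ 2.17.0. The fit was tested on simulated data. The text names all 10 members, Sin3b, up to 4 called genes per list and comparison (mean CPM at least 1), and the 5 nearest genes. The members and lists were chosen with earlier results of these data known. One gene of a list is not reported here.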

Additional observations from a re-analysis of the deposited data

Results flagged for a closer look

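The response to IFNγ differed between the genotypes in 2 of the 10 genes by the edgeR test of the interaction. For Iigp1 the log2 rise in Sin3Bsg1 exceeded that in sgCtrL by 1.12 (adjusted p = 2.05e-05), and for Gm4841 by 1.04 (adjusted p = 0.0308). In both genes the Sin3Bsg1 level stayed below that of sgCtrL in every library with IFNγ. By the edgeR test, that genotype difference passed for Gm4841 (adjusted p = 0.00136) and did not pass for Iigp1 (adjusted p = 0.0540). No group had more than 3 libraries, so single libraries were not screened for values far from the rest.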

How the results depend on the processing

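Over all settings, 1127 values of single members were recomputed; 1068 kept their direction and their side of the threshold, 21 became significant, 21 lost significance and 17 changed sign. The induction calls kept both in both genotypes wherever the gene was tested (at least 10 counts in each library left 7 members). With IFNγ, members called between genotypes (3) became 5 with DESeq2, 6 with no filter, 5 with only the groups compared and 3 to 6 when a library was left out, 6 being without replicate 1 of sgCtrL. Iigp1 was called there under 8 of 21 settings. Without IFNγ, members called (6) were 4 to 6 when a library was left out. Members with a called interaction (2) were 1 to 2 when a library was left out; Iigp1 kept its call in 20 of 20 settings (1.03 to 1.19). All genes called for the interaction (17) became 32 with DESeq2, 110 with no filter and 1 to 33 when a library was left out. With only the groups compared, genes called numbered 3996 instead of 2568 without IFNγ and 1500 instead of 2464 with it, and Igtp lost its call without IFNγ (adjusted p = 0.113). The cause of these changes was not tested.

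Of the sign changes, Igtp with IFNγ became −0.0045 (RLE), −0.0044 (DESeq2), −0.0078 (at least 10 counts), −0.0065 (groups compared only), −0.00032 (replicate block) and −0.019 to 0.036 (a library left out). Tgtp1 untreated became 0.037 with unrounded counts and −0.61 to 0.50 with a library left out, and its interaction −0.13 to 1.71. Gm43302 untreated became −1.83 to 0.31, the last without replicate 2 of sgCtrL; summed with Gbp6 and Gbp10 it became −1.36 untreated (adjusted p = 2.26e-06), −0.30 without IFNγ, 0.026 with IFNγ and 0.32 for the interaction. Libraries of the same replicate number had correlations of −0.041 to 0.192 between groups. Libraries of different numbers were not compared, so whether replicate numbers pair the libraries was not tested. The replicate block called 4, 5, 3 and 2 members in the untreated, without, with and interaction tests. It added Igtp untreated (−0.59, adjusted p = 0.0393) and lost Gm43302 without IFNγ. RLE scaling moved the split of genes called with IFNγ in sgCtrL from 2343 higher and 2164 lower to 2236 and 2236, and in Sin3Bsg1 from 2396 and 1836 to 2113 and 2065. Depth limits Tgtp1, Tgtp2, Ifi47 and Gm43302 without IFNγ.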
